A study of Homo sapiens with 12 samples.

Results

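The 10 genes described here encode the catalytic subunits of the pyruvate dehydrogenase complex (PDHA1, PDHB, DLAT and DLD), the 4 kinases that switch it off (PDK1, PDK2, PDK3 and PDK4) and 2 phosphatases that switch it on again (PDP1 and PDP2). They were taken by symbol from a table of 40825 gene lines, each has 1 line, and all 10 were among the 15587 genes tested. The rule uses symbols and no measured value, but the list of symbols was chosen with earlier results of these data known.

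The complex sits in the mitochondrial matrix and turns pyruvate, the end product of glycolysis, into acetyl-CoA for the citric acid cycle and for fatty acid synthesis. PDK kinases phosphorylate the E1 alpha subunit and stop the reaction, and the PDP phosphatases remove the phosphate, so the balance of both decides whether pyruvate is oxidised or left for lactate and other products. In liver, PDK4 is known as a fasting gene raised by PPAR alpha and FOXO factors, while PDK1 is a classical target of hypoxia-inducible factor (HIF). Transcript levels say nothing directly of phosphorylation or of flux, neither of which was measured here.

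RNA was sequenced from 2 established human hepatocellular carcinoma lines, PLC/PRF/5 and Huh7, in a study of resistance to lenvatinib, an inhibitor of VEGF, FGF and other receptor tyrosine kinases. The 4 groups of 3 libraries were PLC/PRF/5 with lenvatinib, PLC/PRF/5 with DMSO (the solvent), Huh7 with lenvatinib and Huh7 with DMSO. All 12 libraries are labelled wild type. No source used here gives the dose of lenvatinib or how long the cells were exposed. Nor does one say that replicates were separate cultures, so the p-values measure only how far these libraries differ, which may be technical, and each line stands for itself alone.

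Total counts ran from 70236175 to 75820318 per library, and transcripts of the mitochondrial genome took 10.3% to 11.3% of them in PLC/PRF/5 and 5.57% to 6.88% in Huh7. Of 13 hepatocyte lineage markers, 12 reached 1 FPKM (the authors' level per transcript length and library size) on average in both PLC/PRF/5 groups and 13 in both Huh7 groups. TTR was the exception in PLC/PRF/5, at 0.196 FPKM with lenvatinib and 0.120 FPKM with DMSO, and ALB was low there too, at 2.75 FPKM with lenvatinib and 1.81 FPKM with DMSO. Of 10 markers of blood, endothelial and stromal cells, 1 or 2 reached 1 FPKM on average in any group. CD68 did so in PLC/PRF/5 (10.6 to 18.1 FPKM), and PECAM1 there with DMSO (mean 1.10 FPKM). COL1A1 did so in Huh7 (means of 2.10 FPKM with lenvatinib and 3.13 FPKM with DMSO), and COL1A2 there with DMSO (mean 1.06 FPKM). PTPRC, CD3E and VWF were at or near 0. Summed over the 10 markers, levels ran from 11.8 to 14.9 FPKM in PLC/PRF/5 with lenvatinib, 16.1 to 19.8 FPKM with DMSO, 4.21 to 4.82 FPKM in Huh7 with lenvatinib and 5.05 to 5.47 FPKM with DMSO; the part of this in the results was not tested.

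Promoter sequences of the 4 kinases are shown, of PDK1 and PDK4 because their response to lenvatinib differed between the lines and of PDK2 and PDK3 for comparison. The 250 bases before a start site are given 5′ to 3′ on the gene's strand, from RefSeq on GRCh38.p14, with matches to the HIF core in capitals, read as ACGTG or GCGTG on either strand. PDK1 is shown at the second of its RefSeq starts (chr2:172555840-172556089, plus strand), PDK2 at the second of its 3 (chr17:50095101-50095350, plus strand), PDK3 at its start (chrX:24465036-24465285, plus strand) and PDK4 at its start (chr7:95596517-95596766, minus strand).
PDK1: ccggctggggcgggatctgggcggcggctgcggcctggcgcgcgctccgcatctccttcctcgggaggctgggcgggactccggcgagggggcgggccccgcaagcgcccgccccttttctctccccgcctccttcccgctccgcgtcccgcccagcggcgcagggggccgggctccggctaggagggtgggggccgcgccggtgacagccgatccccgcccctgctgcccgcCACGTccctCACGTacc
PDK2: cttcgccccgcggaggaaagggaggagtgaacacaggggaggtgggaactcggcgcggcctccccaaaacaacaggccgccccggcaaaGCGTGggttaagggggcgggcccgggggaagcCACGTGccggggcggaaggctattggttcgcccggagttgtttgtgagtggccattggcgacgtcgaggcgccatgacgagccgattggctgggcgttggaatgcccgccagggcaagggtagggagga
PDK3: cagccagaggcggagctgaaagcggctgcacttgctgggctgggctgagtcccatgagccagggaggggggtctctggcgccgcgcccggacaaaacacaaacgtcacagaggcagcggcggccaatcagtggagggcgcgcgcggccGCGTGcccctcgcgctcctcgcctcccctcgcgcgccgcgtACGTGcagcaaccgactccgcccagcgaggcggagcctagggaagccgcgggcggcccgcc
PDK4: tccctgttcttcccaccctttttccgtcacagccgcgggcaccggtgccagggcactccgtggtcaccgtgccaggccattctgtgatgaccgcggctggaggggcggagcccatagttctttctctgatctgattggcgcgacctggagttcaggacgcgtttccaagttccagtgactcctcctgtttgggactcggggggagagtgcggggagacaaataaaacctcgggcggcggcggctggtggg

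The second PDK1 start has 2 cores, beginning 17 and 8 bases before the start, and they lie on the other strand, where CACGT reads as ACGTG. The printed PDK2 window has 3 matches, beginning 161, 129 and 128 bases before the start, of which the last 2 are the strands of 1 palindrome, CACGTG. PDK3 holds 2 cores on the printed strand, beginning 102 and 61 bases before its start. The PDK4 window, that of the first PDK1 start and those of the other 2 PDK2 starts hold none. PDK1 and PDK3 fell in Huh7 with lenvatinib, and PDK2, which has cores too, passed the test in neither line. PDHA1 and PDP2, with 3 matches each, also passed in neither line. PDHB, with 6, passed as lower in both lines, and DLD, with 1 at its first start, passed as lower in Huh7 alone. DLAT, with 3, and PDK4, with none, passed as lower only in the line other than Huh7. DLAT was at -0.33 on the log2 scale in Huh7, with groups that did not overlap, but did not pass there. For DLD and DLAT the difference between the lines did not pass, so their calls do not show that the lines differed. Whether the cores had a part in any of these responses was not tested. Over the members, RefSeq windows were used for 9 of 10 genes, with 13 start sites, and 8 of the 13 windows hold a HIF core, against 43.2% of all 35116 windows of this length. The FOXO core TGTTTAC (2.98% of all windows) and the nuclear receptor half-site AGGTCA (12.1%), both read on either strand, are in 0 of the 13 windows. These letters are a description of the windows and no record of binding.

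**Figure D1:**
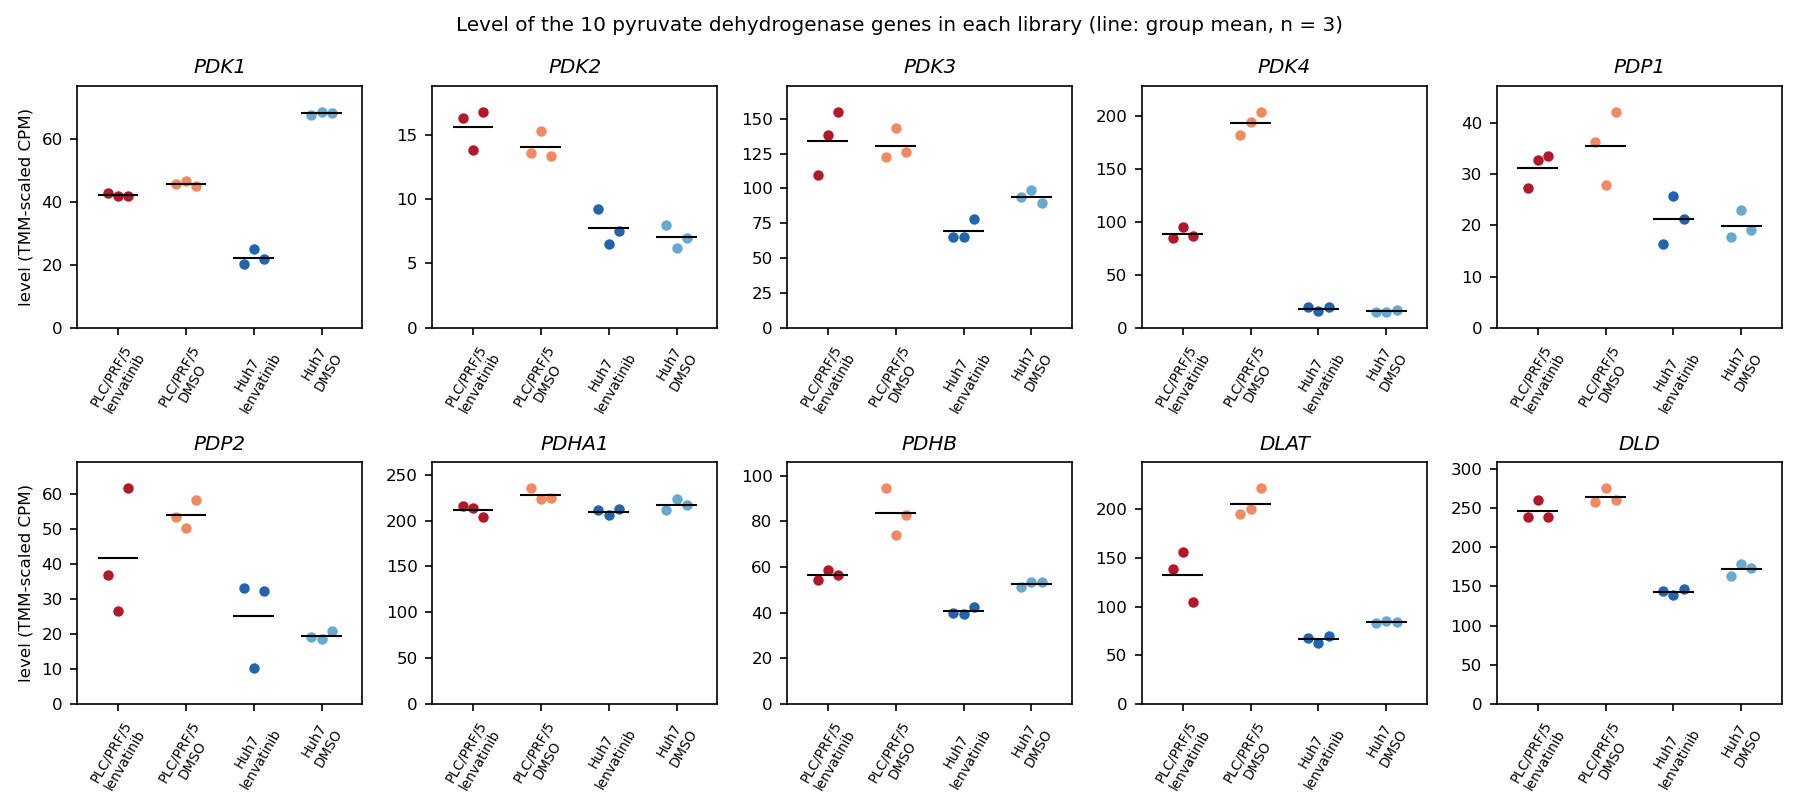
Levels of the 10 genes as CPM, counts per library total scaled by TMM factors (vertical axes, from 0), in each of the 12 libraries, by group; dots are libraries and lines are means of 3. PDK4 stands at 182 to 204 CPM in PLC/PRF/5 with DMSO, and PDK1 at 67.4 to 68.5 CPM in Huh7 with DMSO, each above the other 3 groups.

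Among the kinases, the member that fell most with lenvatinib was a different one in each line: PDK4 fell 2.18-fold in PLC/PRF/5, and PDK1 fell 3.06-fold in Huh7, where PDK3 fell 1.36-fold as well. None of the 4 kinases passed the test as higher in either line. In bulk RNA, a fall in every cell and a loss of the transcript from some cells cannot be told apart. Over all 10 genes, 3 fell and 0 rose in PLC/PRF/5, where 20.1% of all tested genes were called (11.1% lower and 9.01% higher), and 4 fell and 0 rose in Huh7, where 24.7% were called (13.3% lower and 11.4% higher). Calls are at an adjusted p below 0.05 from edgeR's quasi-likelihood test over all 15587 genes. The median log2 fold change of the 10 genes was -0.15 in PLC/PRF/5 and -0.16 in Huh7, against -0.01 in PLC/PRF/5 and 0.00 in Huh7 over all genes tested. The lenvatinib and DMSO libraries did not overlap for 5 genes in each line, all lower with lenvatinib, and 0 genes were higher without overlap. Of all tested genes, 21.5% were lower and 18.6% higher without overlap in PLC/PRF/5, and 21.3% were lower and 20.3% higher in Huh7.

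PDK4, the kinase of the fasted liver (chromosome 7, 95583499 to 95596491, minus strand, GRCh38), had 84.3, 94.5 and 86.3 CPM in PLC/PRF/5 with lenvatinib, against 182, 194 and 204 CPM with DMSO. In Huh7 it had 19.4, 15.5 and 19.0 CPM with lenvatinib, against 15.1, 14.8 and 16.5 CPM with DMSO. All PLC/PRF/5 libraries with lenvatinib lay below all those with DMSO, and the Huh7 groups overlapped, with 2 of the 3 lenvatinib libraries above every DMSO library. The log2 fold change was -1.13 ± 0.09 (SE, adjusted p = 3.45e-05) in PLC/PRF/5 and 0.21 ± 0.09 (adjusted p = 0.125) in Huh7. Without replicate 2 of Huh7 with lenvatinib, the Huh7 value was 0.31 and passed the test (adjusted p = 0.0170). The difference between the lines, PLC/PRF/5 minus Huh7, was -1.34 ± 0.13 (adjusted p = 8.65e-05).

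PDK1, the kinase best known as a HIF target (chromosome 2, 172555373 to 172608669, plus strand), had 42.7, 41.6 and 41.6 CPM in PLC/PRF/5 with lenvatinib, against 45.7, 46.6 and 45.0 CPM with DMSO. In Huh7 the values were 20.1, 24.9 and 21.7 CPM with lenvatinib, against 67.4, 68.5 and 68.2 CPM with DMSO. The groups did not overlap in either line, but the gap was small in PLC/PRF/5 and wide in Huh7. In PLC/PRF/5 the log2 fold change of -0.12 ± 0.07 did not pass the test (95% interval from -0.29 to 0.04, adjusted p = 0.290). In Huh7 it was -1.61 ± 0.08 (adjusted p = 2.07e-07), rank 37 by p among all genes tested there. Between the lines, the change in PLC/PRF/5 minus that in Huh7 was 1.49 ± 0.11 (adjusted p = 1.29e-05).

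PDK3, the X-linked kinase isoform (chromosome X, 24465221 to 24541862, plus strand), had 109.6, 139 and 155 CPM in PLC/PRF/5 with lenvatinib, against 122, 144 and 126 CPM with DMSO. Its Huh7 values were 65.4, 65.0 and 77.8 CPM with lenvatinib, against 94.1, 98.8 and 89.5 CPM with DMSO. The lenvatinib libraries of PLC/PRF/5 lay on both sides of the DMSO range, and those of Huh7 lay below it. Its log2 fold change was 0.04 ± 0.12 (adjusted p = 0.864) in PLC/PRF/5 and -0.44 ± 0.12 (adjusted p = 0.0223) in Huh7. The Huh7 call was lost without replicate 1 or 2 of Huh7 with lenvatinib (adjusted p = 0.0765 for each) and without replicate 1 or 2 of Huh7 with DMSO (0.0549 and 0.0725). The difference between the lines was 0.48 ± 0.17 (adjusted p = 0.0903), and it passed under 1 of the 21 other settings, without replicate 1 of PLC/PRF/5 with lenvatinib (0.61, adjusted p = 0.0183).

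PDK2, the widely expressed kinase (chromosome 17, 50094737 to 50112152, plus strand), was low throughout, with 1063 to 1225 counts in PLC/PRF/5 with lenvatinib, 950 to 1041 with DMSO, 483 to 674 in Huh7 with lenvatinib and 451 to 551 with DMSO. Its groups overlapped in both lines. The log2 fold changes of 0.15 ± 0.16 in PLC/PRF/5 (95% interval from -0.19 to 0.50) and 0.14 ± 0.16 in Huh7 (from -0.20 to 0.49) did not pass the test. In GENCODE 29, 38.6% of PDK2's exon bases lie over SAMD14 on the other strand, which itself had 1 to 46 counts per library.

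**Figure D2:**
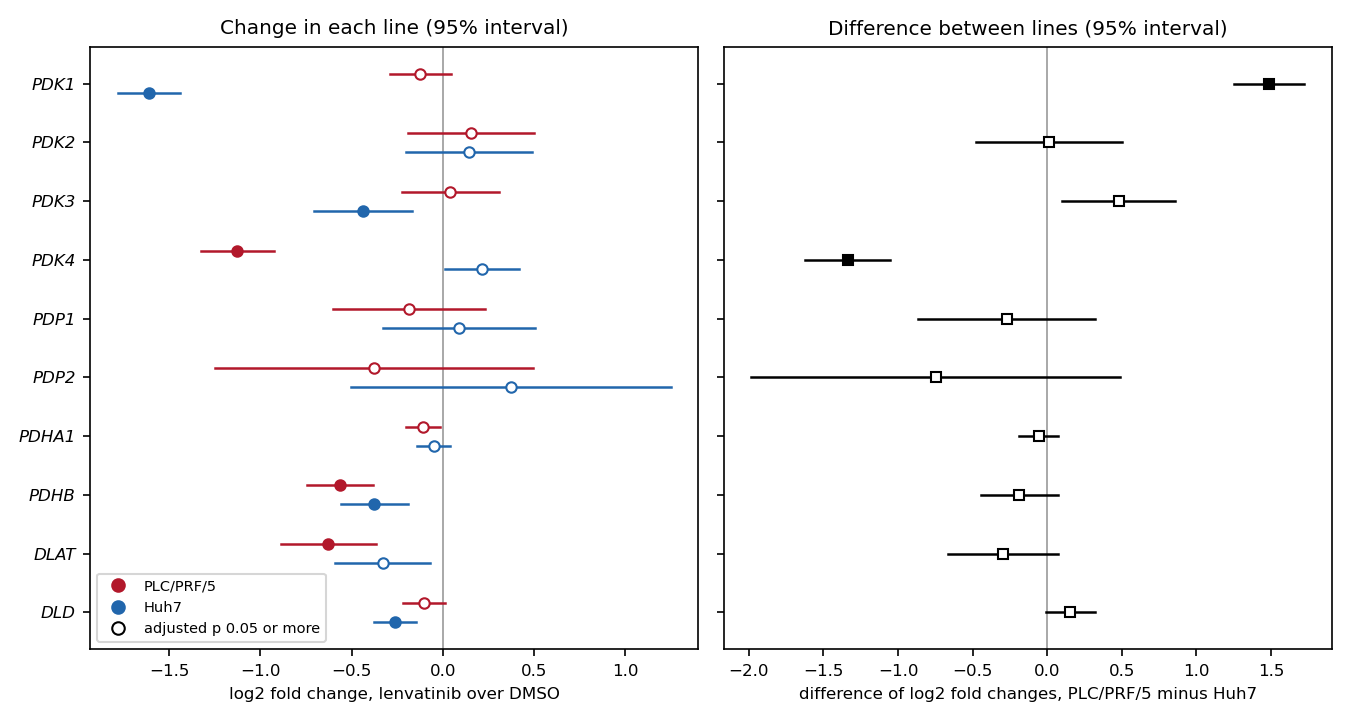
Log2 fold changes of the 10 genes with 95% intervals, lenvatinib over DMSO, in PLC/PRF/5 (red, upper) and Huh7 (blue, lower) on the left, and the PLC/PRF/5 change minus the Huh7 change on the right; open symbols did not pass the test. PDK1 (1.49) and PDK4 (-1.34) are the filled differences, and PDP2 has the widest intervals.

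Only PDK1 and PDK4 passed the test of the difference between the lines, out of the 10 genes, 1 higher and 1 lower, against 14.4% of all tested genes (7.49% higher and 6.9% lower). This comparison uses the same libraries as the single-line ones, so it is no further evidence for them. For the other 8 genes the intervals of the difference include 0 except for PDK3 (from 0.10 to 0.86), which failed after adjustment.

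Kinase levels can be set beside each other only per length, and here the length matters. By the deposited FPKM, the kinases summed to 28.8, 31.9 and 32.1 FPKM in PLC/PRF/5 with lenvatinib, against 45.4, 49.5 and 49.9 FPKM with DMSO. In Huh7 they summed to 10.3, 9.26 and 10.9 FPKM with lenvatinib, against 13.6, 13.5 and 13.4 FPKM with DMSO. The summed level was lower in every lenvatinib library than in every DMSO library of its line, most of it from PDK4 in PLC/PRF/5 and from PDK1 and PDK3 in Huh7. PDK4 made up 55.5 ± 2.80% of the sum in PLC/PRF/5 with lenvatinib and 73.5 ± 1.60% with DMSO (SD, n = 3), and 32.8 ± 2.21% in Huh7 with lenvatinib and 21.0 ± 1.39% with DMSO. The share of PDK1 was 8.09 ± 0.656% in PLC/PRF/5 with lenvatinib and 5.34 ± 0.279% with DMSO, and 12.6 ± 2.24% in Huh7 with lenvatinib and 28.2 ± 0.297% with DMSO.

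The order of the kinases in these shares rests on the length given to PDK3. The FPKM and counts of PDK3 imply a length of 15648 to 15948 bases, while its exons cover 4951 bases in GENCODE 29. Its longest coding transcript has 1921. Implied lengths also exceed the exons, by a smaller factor, for PDK1 (17207 to 17552 against 14883), PDK2 (6364 to 6534 against 5481) and PDK4 (5265 to 5375 against 4519). They are therefore not exact lengths in bases. With the longest coding transcript as the length of every kinase, a choice made after the data were seen, PDK3 held 68.2% of the sum in PLC/PRF/5 with lenvatinib and 52.6% with DMSO, and 80.3% in Huh7 with lenvatinib and 81.4% with DMSO. The fall of the PDK1 share in Huh7 and of the PDK4 share in PLC/PRF/5 with lenvatinib had the same direction by both lengths. That was bound to be so and is no check, because a length scales a kinase alike in every library. The kinase that falls most then loses share by any length.

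**Figure D3:**
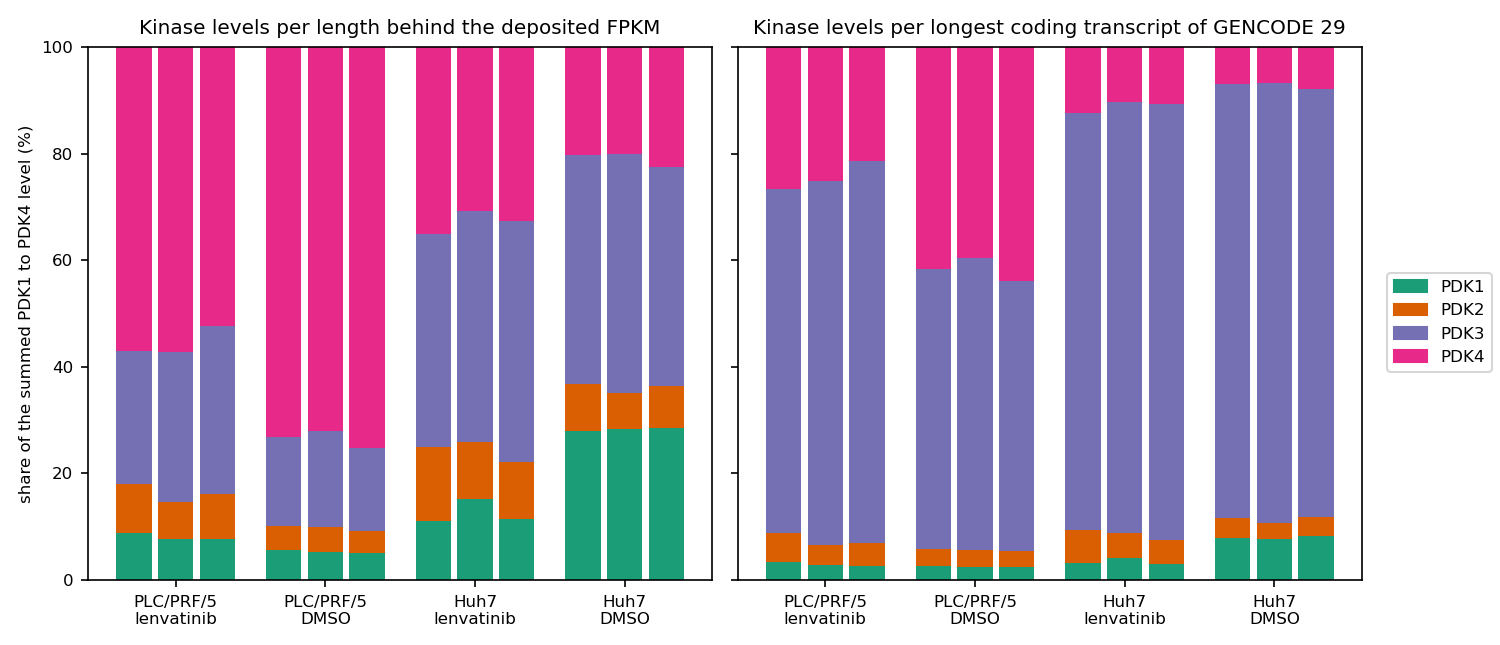
Share of each kinase in the summed level of PDK1 to PDK4 (percent, stacked to 100) in each library, with the length behind the deposited FPKM on the left and the longest coding transcript of GENCODE 29 on the right. PDK4 averages 73.5% of the sum in PLC/PRF/5 with DMSO on the left and 41.8% on the right, and PDK3 averages 42.9% in Huh7 with DMSO on the left and 81.4% on the right.

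Neither phosphatase passed the test in either line, and PDP2 had the largest replicate spread of the 10 genes in both lenvatinib groups. PDP2 (chromosome 16, 66878589 to 66895754, plus strand) had 36.8, 26.6 and 61.7 CPM in PLC/PRF/5 with lenvatinib, against 53.6, 50.3 and 58.5 CPM with DMSO. In Huh7 it had 33.1, 10.5 and 32.4 CPM with lenvatinib, against 19.2, 18.6 and 20.8 CPM with DMSO. One library departed from its group in each lenvatinib group, replicate 3 of PLC/PRF/5 above and replicate 2 of Huh7 below, while the DMSO libraries were close together. The coefficient of variation was 43.3% in PLC/PRF/5 with lenvatinib and 50.8% in Huh7 with lenvatinib, where counting alone would give 1.80% in PLC/PRF/5 and 2.33% in Huh7. On the log2 scale the change was -0.38 ± 0.39 (adjusted p = 0.565) in PLC/PRF/5 and 0.37 ± 0.39 (adjusted p = 0.556) in Huh7. Without the library that departed, it was -0.77 in PLC/PRF/5 (adjusted p = 0.246) and 0.75 in Huh7 (adjusted p = 0.0864).

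PDP1, the calcium-stimulated phosphatase, had 27.4, 32.8 and 33.6 CPM in PLC/PRF/5 with lenvatinib, against 36.4, 28.0 and 42.3 CPM with DMSO. In Huh7 it had 16.5, 25.8 and 21.3 CPM with lenvatinib, against 17.7, 23.0 and 19.1 CPM with DMSO. The groups overlapped in both lines, and the log2 fold changes were -0.18 ± 0.19 in PLC/PRF/5 (95% interval from -0.60 to 0.23) and 0.09 ± 0.19 in Huh7 (from -0.33 to 0.51). The ratio of summed kinase to summed phosphatase FPKM was 3.39 ± 0.657 in PLC/PRF/5 with lenvatinib and 4.53 ± 0.694 with DMSO, and 1.76 ± 0.120 in Huh7 with lenvatinib and 2.75 ± 0.202 with DMSO (SD, n = 3). The libraries of PLC/PRF/5 ran from 2.69 to 4.0 with lenvatinib and from 4.07 to 5.33 with DMSO, and those of Huh7 from 1.65 to 1.89 with lenvatinib and from 2.56 to 2.96 with DMSO. By the longest coding transcript the ratio ran from 6.90 to 9.38 in PLC/PRF/5 with lenvatinib and from 7.24 to 10.2 with DMSO, which overlap, and from 5.18 to 5.67 in Huh7 with lenvatinib and from 7.88 to 8.92 with DMSO, which do not. The DMSO groups of PLC/PRF/5 and Huh7 overlap by that length and not by the deposited FPKM. So the lower ratio with lenvatinib kept its separation under both lengths in Huh7 and not in PLC/PRF/5, and no test was made of it.

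Of the catalytic subunits, E1 beta (PDHB) fell in both lines, E2 (DLAT) passed the test in PLC/PRF/5 and not in Huh7, and E3 (DLD) in Huh7 and not in PLC/PRF/5. E1 alpha (PDHA1) passed in neither line. For none of the 4 did the difference between the lines pass the test, so these calls do not show that the lines differed. The falls that passed were between 1.2-fold (DLD in Huh7) and 1.55-fold (DLAT in PLC/PRF/5).

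PDHB, which with PDHA1 forms the pyruvate-decarboxylating E1 enzyme (chromosome 3, 58427630 to 58433857, minus strand), had 54.4, 58.7 and 56.7 CPM in PLC/PRF/5 with lenvatinib, against 94.4, 73.9 and 82.6 CPM with DMSO. In Huh7 it had 39.9, 39.6 and 42.4 CPM with lenvatinib, against 51.3, 53.2 and 53.6 CPM with DMSO. The lenvatinib libraries lay below the DMSO libraries in both lines. PDHB changed by -0.56 ± 0.08 (adjusted p = 0.00106) on the log2 scale in PLC/PRF/5 and by -0.38 ± 0.08 (adjusted p = 0.00707) in Huh7.

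DLAT, the E2 core that passes the acetyl group to coenzyme A (chromosome 11, 112024814 to 112064390, plus strand), had 139, 156 and 105 CPM in PLC/PRF/5 with lenvatinib, against 195, 201 and 222 CPM with DMSO. In Huh7 it had 68.3, 63.1 and 69.8 CPM with lenvatinib, against 83.4, 85.4 and 84.2 CPM with DMSO. The groups did not overlap in either line. For DLAT the log2 fold change was -0.63 ± 0.12 (adjusted p = 0.00420) in PLC/PRF/5 and -0.33 ± 0.12 (adjusted p = 0.0657) in Huh7. The Huh7 value passed with DESeq2 (adjusted p = 0.0452), in a fit of the Huh7 libraries alone (0.00965) and without replicate 2 (0.0337) or 3 (0.00619) of PLC/PRF/5 with lenvatinib. The fit shares 1 estimate of the spread over the groups, and the coefficient of variation of DLAT was 19.6% in PLC/PRF/5 with lenvatinib, 6.83% with DMSO, 5.24% in Huh7 with lenvatinib and 1.16% with DMSO.

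DLD, the E3 subunit that reoxidises the lipoyl arm and is shared with other dehydrogenases (chromosome 7, 107890970 to 107931730, plus strand), had 238, 259.7 and 239 CPM in PLC/PRF/5 with lenvatinib, against 258, 275 and 260.0 CPM with DMSO. In Huh7 the values were 144, 139 and 147 CPM with lenvatinib, against 163, 179 and 173 CPM with DMSO. The groups overlapped slightly in PLC/PRF/5 and not in Huh7. DLD had a log2 fold change of -0.11 ± 0.05 (adjusted p = 0.186) in PLC/PRF/5 and -0.26 ± 0.05 (adjusted p = 0.00400) in Huh7. A stretch of 70 exon bases lies over LAMB1 on the other strand, which had 14555 to 47829 counts per library. Whether the counting used strand is not stated, so reads there cannot be assigned.

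PDHA1, the phosphorylated E1 alpha subunit (chromosome X, 19343893 to 19361705, plus strand), had 216, 213 and 204 CPM in PLC/PRF/5 with lenvatinib, against 235, 223 and 224 CPM with DMSO, and 211, 206 and 212 CPM in Huh7 with lenvatinib, against 211, 224 and 217 CPM with DMSO. The groups overlapped in Huh7 and did not in PLC/PRF/5, and the group means lay between 209.8 and 228 CPM. In GENCODE 29, 21.3% of its exon bases lie over MAP3K15 on the other strand, which had 217 to 998 counts per library. Its log2 fold change was -0.11 ± 0.04 in PLC/PRF/5 (95% interval from -0.20 to -0.02, adjusted p = 0.0939) and -0.05 ± 0.04 in Huh7 (from -0.14 to 0.04, adjusted p = 0.432). The 4 subunits stood at 10.6 to 42.5 FPKM on average in PLC/PRF/5 with lenvatinib, 14.8 to 43.3 FPKM with DMSO, 7.29 to 39.4 FPKM in Huh7 with lenvatinib and 9.30 to 40.2 FPKM with DMSO, and PDHB was the lowest of them in every group.

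Under DMSO, PLC/PRF/5 had more of 8 of the 10 transcripts than Huh7 and less of 1, where 66.9% of all tested genes differed (33.9% higher and 33.1% lower). The same 8 and 1 did not overlap between the lines, and of all tested genes 36.8% were higher and 35.9% lower without overlap. PDK4 was 12.5-fold higher (log2 fold change 3.64 ± 0.10, adjusted p = 3.08e-10), and PDP2 was 2.77-fold higher (1.47 ± 0.40, adjusted p = 0.00758). DLAT was 2.44-fold, PDK2 2.0-fold, PDP1 1.78-fold, PDHB 1.59-fold, DLD 1.54-fold and PDK3 1.39-fold higher. PDK1 was the member lower in PLC/PRF/5, by 1.49-fold (-0.57 ± 0.08, adjusted p = 4.06e-05). PDHA1 did not pass the test (0.07 ± 0.04, 95% interval from -0.02 to 0.16). The median over the 10 genes was 0.75, against 0.01 over all genes. The PLC/PRF/5 libraries with DMSO also serve the comparison with lenvatinib, so the high PDK4 level there and its fall are not independent measurements.

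The genes around the complex were described by counts from lists of known function. Of the other parts of the complex, PDHX, which anchors E3 to the core, fell in both lines (-0.27 ± 0.08, adjusted p = 0.0335, in PLC/PRF/5 and -0.24 ± 0.08, adjusted p = 0.0428, in Huh7). PDPR, the regulatory subunit of the phosphatase, has near-identical copies in the genome that could share its reads and varied from 5.23 to 6.30 FPKM in PLC/PRF/5 with lenvatinib, 1.56 to 4.48 with DMSO, 9.76 to 18.7 in Huh7 with lenvatinib and 5.08 to 19.6 with DMSO. It passed in neither lenvatinib comparison, and its level is uncertain.

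Of 11 tested pyruvate carriers and other pyruvate enzymes, 2 rose and 3 fell in PLC/PRF/5, and 2 rose and 3 fell in Huh7, 45.5% in each line against 20.1% of all tested genes in PLC/PRF/5 and 24.7% in Huh7. Lactate dehydrogenase A (LDHA), which makes lactate from pyruvate, fell by 0.70 ± 0.09 in PLC/PRF/5 and by 1.65 ± 0.09 in Huh7 on the log2 scale. Pyruvate kinase (PKM), which makes pyruvate, changed by -0.67 ± 0.12 in PLC/PRF/5 and by -1.35 ± 0.13 in Huh7. Malic enzyme ME1 rose in PLC/PRF/5 (0.62 ± 0.07), against -0.08 ± 0.07 in Huh7, where it was not called. LDHB stood at 185 to 189 FPKM in PLC/PRF/5 with lenvatinib and 219 to 225 FPKM with DMSO, and at 0.484 to 0.697 FPKM in Huh7 with lenvatinib and 0.248 to 0.350 FPKM with DMSO. It is counted among the 2 rises in Huh7 (1.02 ± 0.14, adjusted p = 0.000483). LDHB passed the filter on mean FPKM through its level in PLC/PRF/5, so this call rests on a low level. The median of the list was -0.32 in PLC/PRF/5 and -0.15 in Huh7.

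The citric acid cycle uses the acetyl-CoA that the complex makes. Of its 14 listed genes, 2 were higher and 2 lower in PLC/PRF/5 with lenvatinib, while in Huh7 1 was higher and 2 lower. These shares, 28.6% in PLC/PRF/5 and 21.4% in Huh7, are near those of all tested genes (20.1% in PLC/PRF/5 and 24.7% in Huh7). Citrate synthase (CS), which takes in acetyl-CoA, was at -0.36 ± 0.08 in PLC/PRF/5 (adjusted p = 0.00862) and -0.04 ± 0.08 in Huh7 (adjusted p = 0.800). Isocitrate dehydrogenase subunit IDH3A was at -0.21 ± 0.11 in PLC/PRF/5, which did not pass, and at -0.81 ± 0.11 in Huh7, which did. Its partner IDH3B fell in both lines (-0.32 ± 0.06 in PLC/PRF/5 and -0.21 ± 0.06 in Huh7). The succinate-CoA ligase subunit SUCLG2 rose in both (0.49 ± 0.08 in PLC/PRF/5 and 0.26 ± 0.08 in Huh7). The list of sister 2-oxoacid dehydrogenases, which share DLD, also holds the kinase BCKDK, the phosphatase PPM1K and the glycine cleavage genes GLDC, AMT and GCSH. Of its 11 tested genes, 2 rose and 1 fell in PLC/PRF/5 (DLST at 0.59 ± 0.10 and OGDH at -0.49 ± 0.08). In Huh7 0 rose and 2 fell (BCKDHA at -0.56 ± 0.10 and PPM1K at -0.46 ± 0.11). Of 11 genes of lipoate synthesis and attachment, which supply the lipoyl arm of DLAT, 1 fell and 0 rose in each line (GLRX5 at -0.30 ± 0.08 in PLC/PRF/5 and NFU1 at -0.36 ± 0.10 in Huh7). Of the dehydrogenase list, 27.3% were called in PLC/PRF/5 and 18.2% in Huh7, near the share of all tested genes. Of the lipoate list, 9.09% were called in each line, under that share.

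Of 20 HIF target genes, 1 rose and 10 fell in PLC/PRF/5 (median -0.40), and 2 rose and 14 fell in Huh7 (median -0.84). The falls include EGLN3 in PLC/PRF/5 (mean 0.226 FPKM with DMSO) and CA9 in Huh7 (mean 0.456 FPKM with DMSO). Both were low there and passed the filter through their level in the other line. ANKRD37 is among the falls in both lines. Its means were 0.484 FPKM in PLC/PRF/5 with lenvatinib, 1.69 with DMSO, 0.201 in Huh7 with lenvatinib and 0.695 with DMSO. It passed the filter through the PLC/PRF/5 libraries with DMSO. That selection favours its fall in PLC/PRF/5, and its fall in Huh7 rests on a low level. Of all tested genes, 11.1% fell in PLC/PRF/5 and 13.3% in Huh7. P4HA1, a collagen prolyl hydroxylase, was at -0.33 ± 0.06 in PLC/PRF/5 and -1.26 ± 0.06 in Huh7. BNIP3L, a mitophagy receptor, was at -0.26 ± 0.06 in PLC/PRF/5 and -1.09 ± 0.07 in Huh7. The glycolytic enzyme ENO1 was at -0.18 ± 0.04 in PLC/PRF/5 and -0.71 ± 0.04 in Huh7. PGK1, a glycolytic kinase, was at -0.53 ± 0.05 in PLC/PRF/5 and -1.01 ± 0.05 in Huh7. The difference between the lines passed for 13 of the 20, with the value in PLC/PRF/5 minus Huh7 above 0 for 11 of these, where 14.4% of all tested genes passed and 7.49% did so above 0. Under DMSO, 14 of the 20 were lower and 3 higher in PLC/PRF/5 than in Huh7, where 66.9% of all tested genes differed (33.1% lower and 33.9% higher).

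Of 15 tested PPARA and FOXO target genes, 1 rose and 6 fell in PLC/PRF/5 (median -0.29), and 7 rose and 4 fell in Huh7 (median 0.78). That is 46.7% called in PLC/PRF/5 and 73.3% in Huh7, where all tested genes gave 20.1% in PLC/PRF/5 and 24.7% in Huh7, and the calls went both ways in each line. CPT1A, which brings fatty acids into mitochondria, rose in both (0.35 ± 0.05 in PLC/PRF/5 and 0.79 ± 0.05 in Huh7). PLIN2, a lipid droplet coat protein, was at -0.29 ± 0.08 in PLC/PRF/5 and 1.01 ± 0.08 in Huh7. TXNIP, an inhibitor of glucose uptake, fell in both (-0.47 ± 0.06 in PLC/PRF/5 and -1.59 ± 0.07 in Huh7), more in Huh7 (difference 1.11 ± 0.09, adjusted p = 3.26e-05). ANGPTL4, a lipase inhibitor, fell in both (-0.99 ± 0.17 in PLC/PRF/5 and -1.31 ± 0.17 in Huh7). Of 16 factors known to act on PDK genes, 5 passed the test in PLC/PRF/5 (2 higher, 3 lower) and 12 in Huh7 (8 higher, 4 lower), which is 31.3% in PLC/PRF/5 and 75.0% in Huh7. PPARGC1A, counted as higher in Huh7, had means there of 0.247 FPKM with lenvatinib and 0.102 FPKM with DMSO. It passed the filter through its level in PLC/PRF/5. EPAS1, the HIF-2 alpha subunit, fell in both (-0.77 ± 0.05 in PLC/PRF/5 and -0.51 ± 0.05 in Huh7), and FOXO3 rose in both (0.39 ± 0.09 in PLC/PRF/5 and 0.71 ± 0.09 in Huh7). FOXO1, known to raise PDK4 transcription, was at 0.22 ± 0.09 in PLC/PRF/5 (adjusted p = 0.126) and fell in Huh7 (-0.61 ± 0.10). The difference, PLC/PRF/5 minus Huh7, was 0.83 ± 0.13 (adjusted p = 0.00212). Whether any of these factors acted on the PDK genes here was not tested. E2F1, a cell cycle factor, was at 0.28 ± 0.15 in PLC/PRF/5 (adjusted p = 0.237) and fell in Huh7 (-1.51 ± 0.16), with a difference of 1.79 ± 0.22 (adjusted p = 0.000384).

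**Figure D4:**
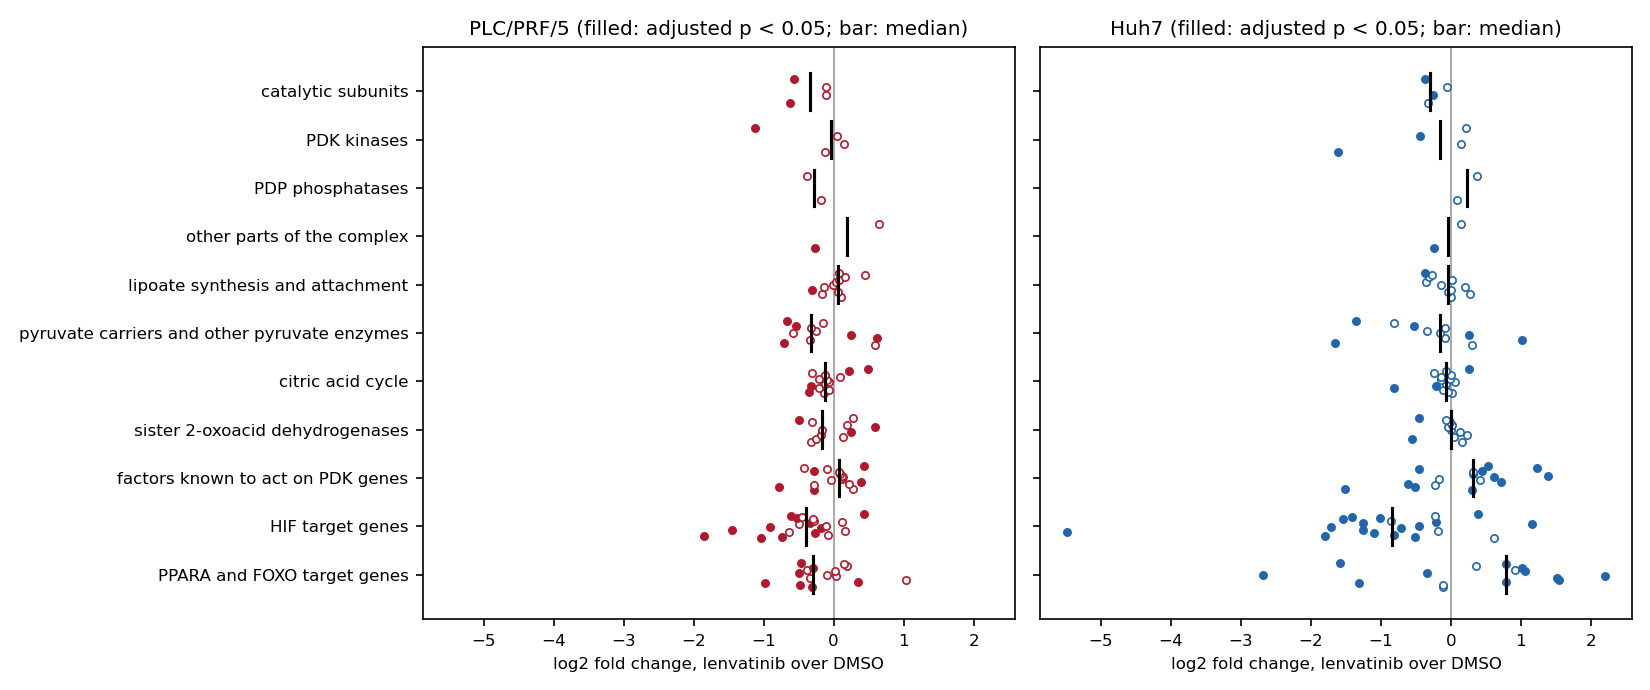
Log2 fold change of each tested gene, lenvatinib over DMSO, in PLC/PRF/5 (left) and Huh7 (right), by list; dots are genes, filled at an adjusted p below 0.05, and black bars are list medians. HIF target genes have medians of -0.40 in PLC/PRF/5 and -0.84 in Huh7, and PPARA and FOXO target genes of -0.29 in PLC/PRF/5 and 0.78 in Huh7.

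For PDK1 and PDK4, the genes with the most similar profile were sought among those with a mean of at least 5 FPKM, by the root mean square difference of centred log2(CPM + 1) values over the 12 libraries. The nearest to PDK1 were OSGIN2 (0.160), CENPW (0.161), FEN1 (0.179), NUAK1 (0.199) and NTS (0.201), where the median over 7099 candidates was 0.669. CENPW, a centromere protein, changed by -0.05 in PLC/PRF/5 and -1.61 in Huh7 with lenvatinib, close to the values of PDK1. The nearest to PDK4 were TM4SF1 (0.174), PPP2R1B (0.242), NFKBIE (0.276), MAP3K8 (0.298) and OLR1 (0.299), where the median over 7098 candidates was 1.53. TM4SF1, a tetraspan membrane protein, changed by -1.06 in PLC/PRF/5 and 0.55 in Huh7. The 5 genes nearest to PDK4 share its higher level in PLC/PRF/5 under DMSO (log2 fold changes from 2.95 to 4.46), and the 5 nearest to PDK1 share its fall in Huh7 (from -1.61 to -1.17). Both are what the measure of likeness selects, and they are a description only.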

How the data were processed

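Counts and FPKM of 12 libraries, in 4 groups of 3 taken from the sample titles, come from 1 deposited table; both were made by the authors, per the file headers. HISAT2 and hg19 are named per the submitters' processing notes, and no source used here gives its version, the counting tool, its gene models or whether strand was used. Per the labels' protocols, mRNA was read as single ends on a BGIseq500. Another 12 columns, from a different cell line, were left aside. Counts were tested as deposited with edgeR's robust quasi-likelihood test, TMM factors, 1 coefficient per group and Benjamini-Hochberg adjustment over the 15587 genes whose mean FPKM was 0.5 or more; the common biological coefficient of variation was 0.234. The threshold was an adjusted p of 0.05, and intervals are at 95%. The fit was tested on simulated data. FPKM served for the filter and for levels between genes. Kinase sums, shares and ratios, marker sums and some levels of single genes were also set beside each other between groups by FPKM. Such sums and levels carry no TMM factors, while a share or ratio within a library is the same by any scaling. Within each member the ratio of counts to FPKM, scaled by the library total, agreed within 1.03-fold over the libraries.

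The members and gene lists were chosen with earlier results of these data known. Named genes are the 10 members, from each other list the 4 of smallest adjusted p with a mean FPKM of 1 or more, and the 5 nearest profiles to PDK1 and to PDK4. The text describes part of them. Further cell type markers and EGLN3, CA9, ANKRD37 and PPARGC1A are named for their level only. Gene positions, lengths and overlaps were read from GENCODE 29 (GRCh38) and promoters from RefSeq, another build than the submitters'. Exons of PDK1, PDK2, PDHA1, PDHB, DLAT and DLD overlap genes on the other strand. There were 22 other settings for each comparison and 21 for the difference, including other scalings, limma on log2(FPKM + 1) and log2(FPKM + 0.1), DESeq2, other filters and each library left out; the length used for kinase shares and ratios was added after the data were seen. Total counts per library limit counting error only. The tools were edgeR 4.0.16, DESeq2 1.42.0 and limma 3.58.1 in R 4.3.3, with matplotlib 3.10.9 and pandas 2.3.3 in Python 3.11.15.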

Additional observations from a re-analysis of the deposited data

Results flagged for a closer look

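The response of PDK1 to lenvatinib differed between the lines by 1.49 on the log2 scale (PLC/PRF/5 minus Huh7), from changes of -0.12 in PLC/PRF/5 and -1.61 in Huh7, by the interaction term of the edgeR fit (adjusted p = 1.29e-05). That of PDK4 differed by -1.34, from -1.13 in PLC/PRF/5 and 0.21 in Huh7 (adjusted p = 8.65e-05). Both differences passed the test under all 21 other settings run for the difference, from 1.06 to 1.58 for PDK1 and from -1.44 to -1.18 for PDK4. The lines also differed in the PDK4 level before treatment, 12.5-fold under DMSO, and its part in the difference was not tested.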

How the results depend on the processing

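Of 870 member values under other settings, 847 kept their direction and side of the threshold, 4 lost a call, 6 gained one and 13 turned direction, none of the 13 called in either setting. The calls of PDK1, PDHB and DLD in Huh7 and of PDK4, PDHB and DLAT in PLC/PRF/5 held under all 22. The number of members called was 3 in PLC/PRF/5, 3 to 5 in Huh7, 2 to 3 for the difference and 9 under DMSO with single libraries left out. All genes called ran from 2225 to 3283, 2994 to 3859, 1782 to 2307 and 9871 to 10494. PDK2 turned in the difference with RLE factors (-0.0019) and DESeq2 (-0.0021), and ran from -0.099 to 0.16 with single libraries left out. So did PDK2 in Huh7 (-0.0031 to 0.25), PDP1 in Huh7 (-0.077 to 0.24) and PDK3 in PLC/PRF/5 (-0.074 to 0.17). The cause was not tested. Library totals alone raised the share of higher calls to 63.1% from 44.8% in PLC/PRF/5 and to 61.8% from 52.0% for the difference, with the same members called. By the longest coding transcript, the shares of PDK1, PDK2, PDK3 and PDK4 were 2.93%, 4.50%, 68.2% and 24.4% in PLC/PRF/5 with lenvatinib, 2.50%, 3.16%, 52.6% and 41.8% with DMSO, 3.51%, 5.03%, 80.3% and 11.2% in Huh7 with lenvatinib and 7.97%, 3.40%, 81.4% and 7.21% with DMSO, and the ratio of kinase to phosphatase level averaged 8.0, 8.36, 5.37 and 8.26 in the same 4 groups; here the other length is the cause. Same-numbered libraries did not deviate together (correlations of residuals from -0.012 to 0.068), and with the replicate block 3, 4, 2 and 9 members and 2807, 3535, 1957 and 10287 genes were called in PLC/PRF/5, Huh7, the difference and under DMSO.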
